A study of Mus musculus with 2 samples.

Results

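Nonsense-mediated decay transcripts, spliced RNAs whose annotated stop codon lies far enough upstream to mark them for degradation, were examined in the gastrocnemius muscle of young mice. The transcripts were chosen by annotation and not by any measured difference: they are the annotated ("Known") models that GENCODE M21 gives the type nonsense_mediated_decay and that have at least 1 read in either library. There were 503 of them among the 19252 annotated transcripts with reads, in 455 genes, and they carried 2642 reads. The annotation holds 7186 transcripts of this type in 4576 genes, so most had no read. Below they are called decay-type transcripts, a name that states their annotation and not a measured rate of decay.

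The libraries are long-read RNA sequencing of the calf muscle gastrocnemius. The mice were females of the strain B6CASTF1/J, the F1 offspring of C57BL/6J and CAST parents, at an age of 25 days. The labels list biological replicates 1 and 2 of a single group, with 2 µg of RNA used for each, number the animals 3 and 4, and give 1 donor record for both. No treatment or mutation is named, so the only comparison is between the replicates, and animal, dissection and library cannot be told apart in it. Replicate 1 held 1069771 reads and replicate 2 held 1557594 after ERCC spike-ins were left out, of which 681049 and 1053999 matched an annotated transcript.

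A list of 39 sarcomere and calcium-handling genes, which marks striated muscle, took 247831 of the annotated reads in replicate 1 and 408853 in replicate 2. Taking 3 counts as the limit, the absence of a read allows a level of 2.80 CPM in replicate 1 and of 1.93 CPM in replicate 2, where CPM are reads scaled to all reads of the library. These limits and all intervals, which are exact Clopper-Pearson 95% intervals, cover counting error only, since the reads carry no molecular identifiers.

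During splicing a protein complex is left just upstream of each exon junction. A ribosome normally clears these complexes before it stops, and a stop codon that lies well upstream of the last junction leaves one in place, through which the factor Upf1 and the Smg proteins direct the RNA to degradation. The pathway removes faulty RNAs and also lowers normal ones: many RNA-binding proteins include a "poison" exon in their own transcript and so limit their own level. Cells with an active pathway therefore hold little of these RNAs at any time.

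The reading frames show how the stop codons arise. The following pairs give, for 8 decay-type transcripts chosen because they are well read or show a different kind of splicing change, the annotated coding sequence from a few codons before the point where it leaves that of the most read coding transcript up to its stop codon, which is in capitals. The second line of each pair is the coding transcript over the same number of bases. All are 5′ to 3′ on the transcript strand from the GENCODE M21 transcript sequences (mm10), which represent C57BL/6J and were not read from the libraries.
E2f6-204, added exon: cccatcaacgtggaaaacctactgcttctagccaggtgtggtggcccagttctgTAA
E2f6-201, coding: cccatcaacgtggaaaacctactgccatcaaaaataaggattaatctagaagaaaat
Chpt1-207, other donor site: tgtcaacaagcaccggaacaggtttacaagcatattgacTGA
Chpt1-203, coding: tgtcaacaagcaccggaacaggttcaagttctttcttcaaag
Ddx5-208, retained intron: accgatgtggcctccagagggctaggtTAG
Ddx5-201, coding: accgatgtggcctccagagggctagatgtg
Actg1-206, added exon: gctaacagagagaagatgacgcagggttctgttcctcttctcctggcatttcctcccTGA
Actg1-202, coding: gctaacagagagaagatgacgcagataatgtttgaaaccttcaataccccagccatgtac
Psma3-201, other acceptor site: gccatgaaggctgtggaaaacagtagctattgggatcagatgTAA
Psma3-202, coding: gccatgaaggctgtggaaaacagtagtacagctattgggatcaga
Adhfe1-201, skipped exon: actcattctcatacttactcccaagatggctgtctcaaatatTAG
Adhfe1-203, coding: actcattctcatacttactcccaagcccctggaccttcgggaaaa
Myoz2-203, added exon: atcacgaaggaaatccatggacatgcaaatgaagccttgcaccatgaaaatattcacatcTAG
Myoz2-201, coding: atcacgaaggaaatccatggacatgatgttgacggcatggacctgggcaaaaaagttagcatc
Srsf3-201, added exon: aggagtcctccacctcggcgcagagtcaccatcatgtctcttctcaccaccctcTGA
Srsf3-202, coding: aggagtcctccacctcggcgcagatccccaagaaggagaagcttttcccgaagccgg

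In mm10 these stop codons lie at chr12:16813877-16813879 (E2f6, plus strand), chr10:88475405-88475407 (Chpt1, minus), chr11:106783954-106783956 (Ddx5, minus), chr11:120347501-120347503 (Actg1, minus), chr12:70983340-70983342 (Psma3, plus), chr1:9552940-9552942 (Adhfe1, plus), chr3:123033326-123033328 (Myoz2, minus) and chr17:29039485-29039487 (Srsf3, plus). In E2f6, Actg1, Myoz2 and Srsf3 the stop codon lies inside the added exon itself. In Ddx5 it follows 5 bases after the divergence, in the retained intron. In Psma3, Chpt1 and Adhfe1 the other splice site or the skipped exon changes what follows, and the stop comes 19, 18 and 20 bases after the divergence.

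The decay-type transcripts made up a small part of the muscle's annotated reads. They held 1165 reads in replicate 1, which is 0.171% (0.161 to 0.181) of annotated reads, and 1477 in replicate 2, which is 0.140% (0.133 to 0.147). The mean was 0.156% ± 0.0219 (SD, n = 2), and the intervals of the libraries did not overlap. In bulk muscle RNA, fewer cells of a type and less RNA per cell cannot be told apart. Transcripts of the protein_coding type held 96.9% and 95.6% in the same order, and those of the retained_intron type, which carry an intron and have no annotated reading frame, held 0.797% and 1.51%.

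Scaled to library size, the decay-type transcripts stood at 1089 CPM in replicate 1 and 948 CPM in replicate 2, a log2 ratio of replicate 2 over replicate 1 of -0.20, while the retained_intron type had a log2 ratio of 1.01. The same ratio was 0.07 for the protein_coding type and 0.50 for the processed_transcript type. DESeq2 size factors add 0.22 to every ratio alike, which puts the decay type at 0.02. The share of annotated reads given above does not depend on scaling and was lower in replicate 2. The difference was smaller with a wider denominator. Adding reads of new combinations of annotated sites (NIC) and of new sites (NNC) gave 0.125% in replicate 1 and 0.121% in replicate 2.

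Most decay-type transcripts were seen by very few reads. Of the 503, 345 had reads in replicate 1 and 357 in replicate 2, and 199 had reads in both, which is 57.7% of the first set and 55.7% of the second. A further 146 were seen in replicate 1 alone and 158 in replicate 2 alone. The transcripts seen in both held 85.0% of the reads. A single read was all there was for 245 of the 503, 208 had between 2 and 9 reads and 50 had 10 or more.

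Among transcripts seen in 1 library the highest value was that of Poldip2-202, with 7 reads in replicate 1 and 0 in replicate 2. The share seen in both libraries was 39.6% for the decay type, 72.6% for the protein_coding type (10946 of 15081) and 31.1% for the retained_intron type (499 of 1605). The types also differ in depth, with a median of 2, 8 and 1 reads per transcript in that order, so these shares are not at equal depth.

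The reads were concentrated in a few genes. Smpx-201 alone gave 17.1% of all decay-type reads, the leading 5 transcripts 33.1%, the leading 10 39.9% and the leading 20 48.1%. Smpx (ENSMUSG00000041476.12) encodes a small protein of striated muscle that is linked to the cytoskeleton.

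Smpx-201 (chrX:157698910-157752591, plus strand) had 157 reads of 202 annotated reads of its gene in replicate 1 and 294 of 356 in replicate 2. That is 77.7% (71.4 to 83.3) and 82.6% (78.2 to 86.4) of the gene, high in both libraries with overlapping intervals. Unlike the transcripts printed above, it ends its reading frame at the same stop codon as the most read coding transcript, Smpx-203, which had 40 and 51 reads. The difference is a 35-base exon after the stop, which puts the stop 52 bases before the last junction. Its intron chain is also that of Smpx-208, annotated as protein_coding with the same reading frame. No read was given to Smpx-208, so the type of these reads rests on which of these annotated models a read was assigned to. Without Smpx-201 the share of annotated reads was 0.130% and the log2 ratio between the libraries -0.31.

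Shared intron chains of this kind occurred elsewhere. In the annotation, 78 intron chains belong to a decay-type transcript and also to a transcript of another type. Reads were listed on the decay-type transcript for 8 of them (476 reads), on the other transcript for 13 (174 reads) and on both for 0. Over all types, 722 annotated chains have 2 or more transcripts, 247 of these had reads, and 0 had reads on more than 1 transcript. The 8 were those of Abraxas1, Evi2, Flot2, Lrig1, Prmt6, Smpx, Srsf2 and Tbrg4, named after their values were seen; Flot2-205 had 2 and 5 reads and Tbrg4-211 had 7 and 3. Without them the share of annotated reads was 0.129%.

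**Figure D1:**
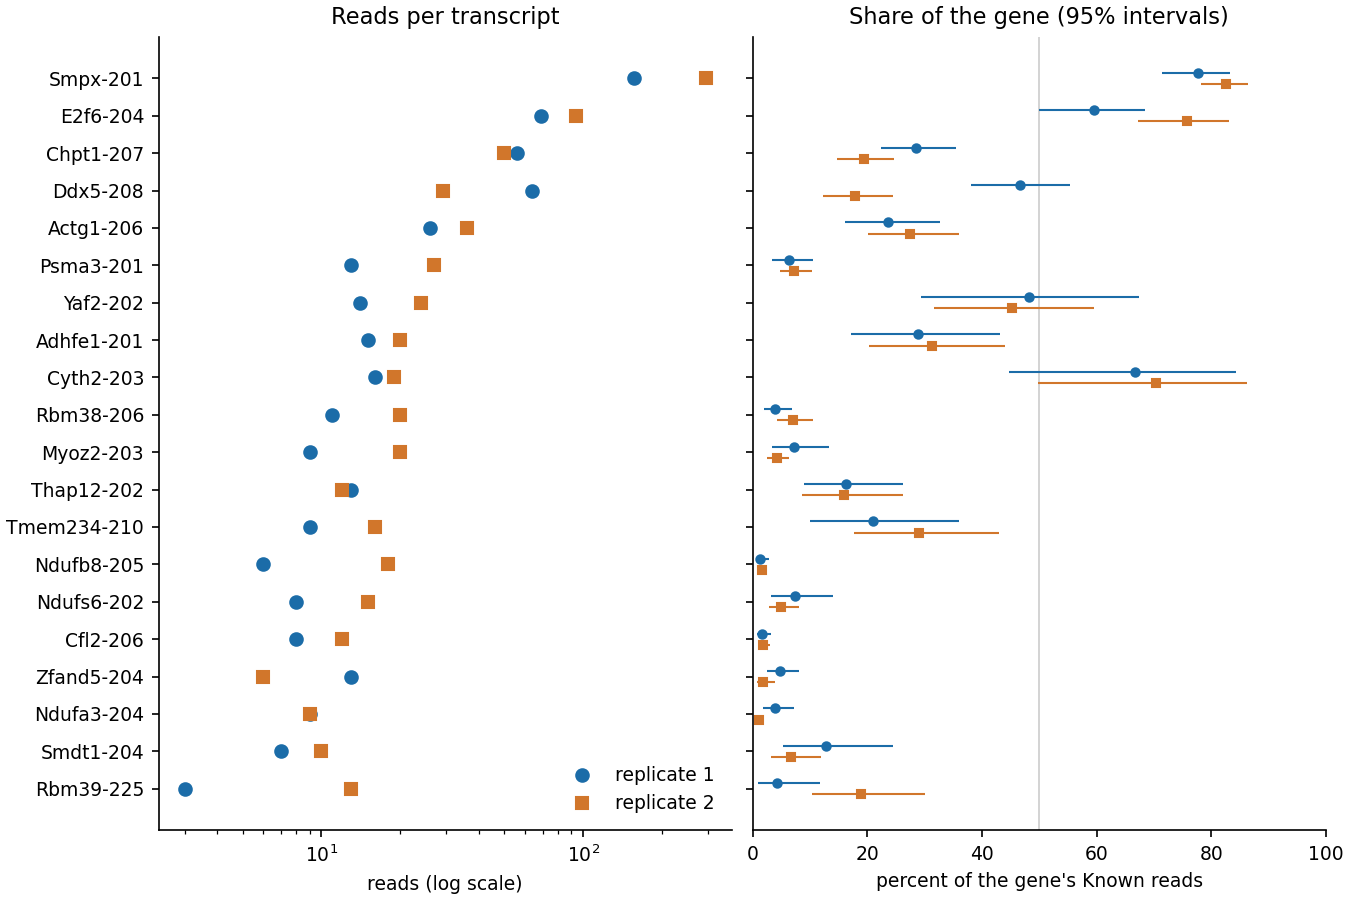
Reads (left, log scale) and percent of the gene's annotated reads (right, with exact 95% intervals) for the 20 most read nonsense-mediated decay transcripts, with circles for replicate 1 and squares for replicate 2. Smpx-201, at 77.7% and 82.6%, leads both panels, and the libraries stand apart most for Ddx5-208, at 46.7% and 17.8%.

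E2f6-204 was the next most read. E2f6 is a repressor of the E2F family of transcription factors, which lacks the activation domain of its relatives. The transcript (ENSMUSG00000057469.8, chr12:16811099-16826752, plus strand) had 69 reads of 116 in replicate 1 and 94 of 124 in replicate 2, which is 59.5% (49.97 to 68.5) and 75.8% (67.3 to 83.0) of the gene. The most read coding transcript, E2f6-201, had 43 and 27 reads. E2f6-204 holds an added exon of 66 bases in which the frame ends, 724 bases before the last junction, so that its reading frame is 141 bases long against 819. The majority of annotated reads of E2f6 in this muscle thus came from a transcript of the decay type in both libraries.

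Cyth2 and Yaf2 had similarly high shares. Cyth2, a cytohesin that activates ARF GTPases, had 16 of 24 and 19 of 27 reads on Cyth2-203, or 66.7% and 70.4%, through a donor site that shifts the frame. Yaf2, a partner of the Polycomb system, had 14 of 29 and 24 of 53 reads on Yaf2-202, or 48.3% and 45.3%, through an added 70-base exon. In both genes the intervals of the libraries overlapped.

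Chpt1-207, Actg1-206 and Adhfe1-201 were each between 19% and 32% of their gene. Chpt1 makes phosphatidylcholine, and Chpt1-207 had 56 of 196 reads in replicate 1 and 50 of 258 in replicate 2, or 28.6% and 19.4%. It keeps most of the frame, 1197 bases against 1221, and its stop is 72 bases before the last junction. Actg1 encodes cytoplasmic gamma-actin, and Actg1-206 had 26 of 110 and 36 of 131 reads, or 23.6% and 27.5%. Its added 45-base exon keeps the frame but holds a stop codon. Adhfe1 encodes a mitochondrial transhydrogenase, and Adhfe1-201, which skips a 41-base exon, had 15 of 52 and 20 of 64 reads, or 28.8% and 31.3%. Actin genes are close paralogs, and the handling of reads that fit several genes was not given in the sources used here.

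Other well-read transcripts came from the Z-disc, the proteasome and mitochondria, with smaller shares. Myoz2 encodes a Z-disc protein that binds calcineurin, and Myoz2-203 had 9 of 124 and 20 of 478 reads, or 7.26% and 4.18%. Psma3 encodes an alpha subunit of the proteasome, and Psma3-201 had 13 of 205 and 27 of 373 reads, or 6.34% and 7.24%. Cfl2 encodes the muscle cofilin, and Cfl2-206 had 8 of 477 and 12 of 669 reads, or 1.68% and 1.79%. Smdt1 encodes a part of the mitochondrial calcium uniporter, and Smdt1-204 had 7 of 55 and 10 of 151 reads, or 12.7% and 6.62%. For these 4 transcripts the intervals of the libraries overlapped.

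Rbm38-206 had 11 and 20 reads, at 3.90% and 6.97% of an RNA-binding protein gene. Tmem234-210 had 9 and 16 reads, Thap12-202 had 13 and 12, and Zfand5-204 had 13 and 6. Slc35b1-202 held 28.0% and 24.3% of its gene, Mtfr1-201 20.6% and 20.8%, Pcnp-206 13.5% and 20.8%, and Ncaph2-209 24.1% and 11.4%, each on 5 to 10 reads a library. Their order in share is not resolved at this depth.

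Across genes, a decay-type transcript usually held a small part of the gene. In 3065 genes with 20 or more annotated reads in each library, 830 had a decay-type transcript in the annotation, and 183 of these, 22.0%, had a read on one. These 830 genes hold 1297 annotated decay-type transcripts, of which 209, or 16.1%, had a read. Pooled over the 830 genes the decay-type share was 0.773% in replicate 1 and 0.647% in replicate 2. Among the 183 genes the median share was 1.74% (quartiles 0.861 to 6.40), 2.33% in replicate 1 and 1.71% in replicate 2. This median is over genes that had such a read and rises where the minimum is lower: it was 6.76% with no minimum and 1.00% with 50 or more annotated reads in each library. Shares of 0 to 5% were found in 132 of the 183 genes, 5 to 20% in 38, 20 to 50% in 10 and 50% or more in 3, Smpx, E2f6 and Cyth2.

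A decay-type transcript was the most read annotated transcript in 5 of 5118 genes with 20 or more annotated reads over both libraries, or 0.0977%. These were Cyth2, E2f6, Fbxo17, Smpx and Tor1aip1, of which Fbxo17 and Tor1aip1 were named after their values were seen. Cyth2, E2f6, Fbxo17 and Smpx were also led by it in each library, while Tor1aip1 was tied in replicate 1. The 5118 genes include those with no annotated decay-type transcript, which could not be led by one. Of the 3065 genes with 20 or more annotated reads in each library, 830 have one. Fbxo17-202 had 11 of 19 and 5 of 7 reads, 57.9% (33.5 to 79.7) and 71.4% (29.0 to 96.3). Tor1aip1-206 had 5 of 10 and 8 of 16 reads, 50% in each, beside 5 and 7 reads of the coding Tor1aip1-202. At the other end of the range, 20 decay-type transcripts held every annotated read of their gene, but with 36 reads in all; the most read, Lmf1-206, had 5 and 3.

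Shares of the better-read transcripts were correlated between the libraries, with a median absolute difference of 2.42 percentage points over the 77 tested. Over the 77 decay-type transcripts with 5 or more reads in genes with 20 or more annotated reads in each library, Pearson's r between the shares was 0.913 and Spearman's rho 0.822. Over the 209 in such genes with any read, rho was 0.448. These are descriptions across transcripts, several of which share a gene, and not tests. The 95% intervals of the libraries overlapped for 75 of the 77; those of Ddx5-208 and Poldip2-202 did not. That is 2.60% of the 77, near the 2.52% (79 of 3140) over all tested transcripts, of which 1.11% were called, as given with the test of Ddx5-208.

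**Figure D2:**
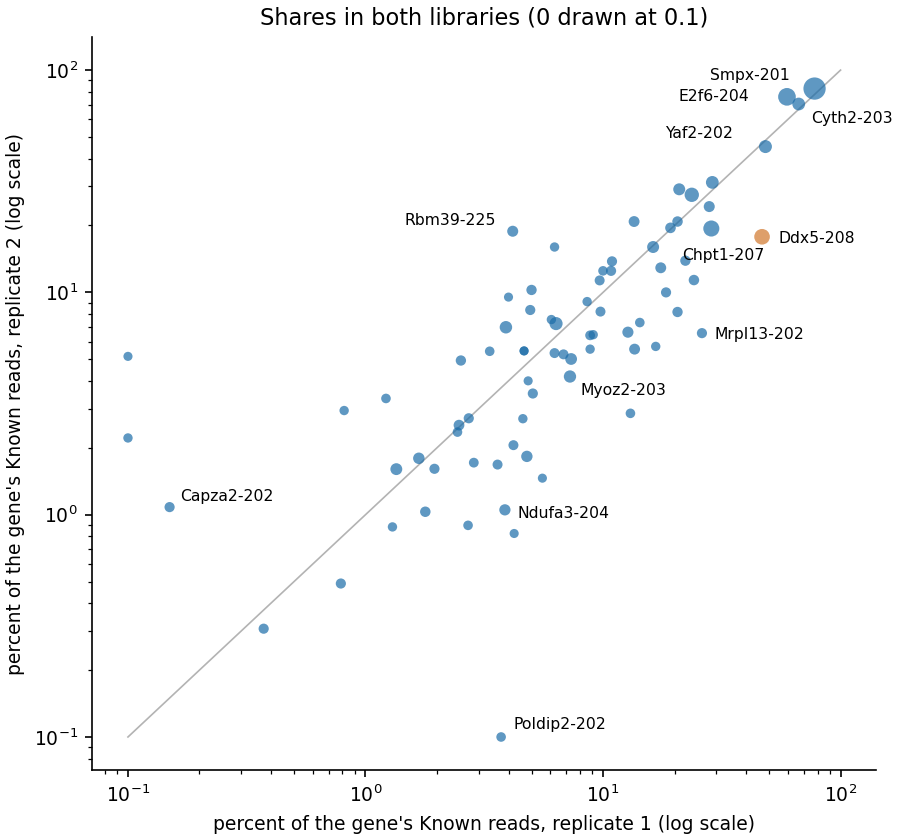
Percent of the gene's annotated reads in replicate 1 (horizontal) and replicate 2 (vertical), both on log scales, for the 77 tested nonsense-mediated decay transcripts, with larger points for more reads and shares of 0 drawn at 0.1. Points follow the line of equal shares at the upper end and spread below about 10%, and Ddx5-208 is drawn in orange.

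Ddx5-208 was the exception. Ddx5 is a DEAD-box RNA helicase that acts in splicing and transcription and in muscle differentiation. Ddx5-208 (chr11:106781548-106788494, minus strand) had 64 of 137 reads in replicate 1 and 29 of 163 in replicate 2. Its share was 46.7% (38.1 to 55.4) in the first and 17.8% (12.3 to 24.5) in the second, while the coding Ddx5-201 had 73 and 133 reads. With Fisher's exact test, two-sided, on the reads of each annotated transcript against the rest of its gene, its adjusted p was 2.77e-05 (Benjamini-Hochberg over 3140 transcripts of all types).

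It was the 1 decay-type transcript called of 77 tested, 1.30%, where 35 of all 3140 were called, or 1.11%: 0.541% higher in replicate 2 and 0.573% lower. The share called among decay-type transcripts is near this background. Transcripts of a gene divide its reads, so a change in a gene can be counted on more than 1 of the 3140. The test compares the reads of these libraries, not conditions, and takes no account of how far muscles of other animals would differ. Ddx5-208 was called under all 5 other settings of the test that were run. It retains an intron, and of the retained_intron type 11 of 198 tested were called, each higher in replicate 2, the opposite direction. Whether RNA quality or unspliced RNA has a part in either was not tested.

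A further 7 transcripts had an unadjusted p under 0.05 by the same Fisher's exact test and missed the threshold after Benjamini-Hochberg adjustment. Poldip2-202, from a gene for a DNA polymerase partner, had 7 of 188 and 0 of 256 reads (adjusted p 0.127). Ndufa3-204 had 9 of 233 and 9 of 856 (adjusted p 0.232), Rbm39-225 had 3 of 72 and 13 of 69 (adjusted p 0.245), and E2f6-204 is given above (adjusted p 0.256). Mrpl13-202 had 6 of 23 and 4 of 61 (adjusted p 0.452), Chpt1-207 is given above (adjusted p 0.469), and Capza2-202 had 1 of 668 and 9 of 832 (adjusted p 0.644). Over the 77, 34 shares were higher in replicate 2 and 43 lower, with a median difference of -0.30 percentage points against -0.08 over all 3140. The median size of the difference was 2.42 points for the 77 and 2.82 for all. The difference in share had a Spearman's rho of -0.017 with the difference in length between the decay-type and the coding transcript over the 77.

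The annotated stop codons lie where the rule for decay places them. The rule asks for a stop more than 50 bases before the last exon junction. Of 502 transcripts with an annotated stop codon, 500, or 99.6%, meet it; Thap12-204, at 50 bases, and Ubl5-205, at 38, both named after their values were seen, do not. Of the 14474 coding transcripts with reads, a stop codon and a junction, 41 meet it, or 0.283%, and 94.8% have the stop in the last exon. This contrast comes from how the types are annotated. Within the decay type the median distance was 305.5 bases (quartiles 147 to 664, range 38 to 3808) with a median of 3 junctions after the stop. There were 20 between 51 and 60 bases, Smpx-201 and Ndufa3-204 among them.

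**Figure D3:**
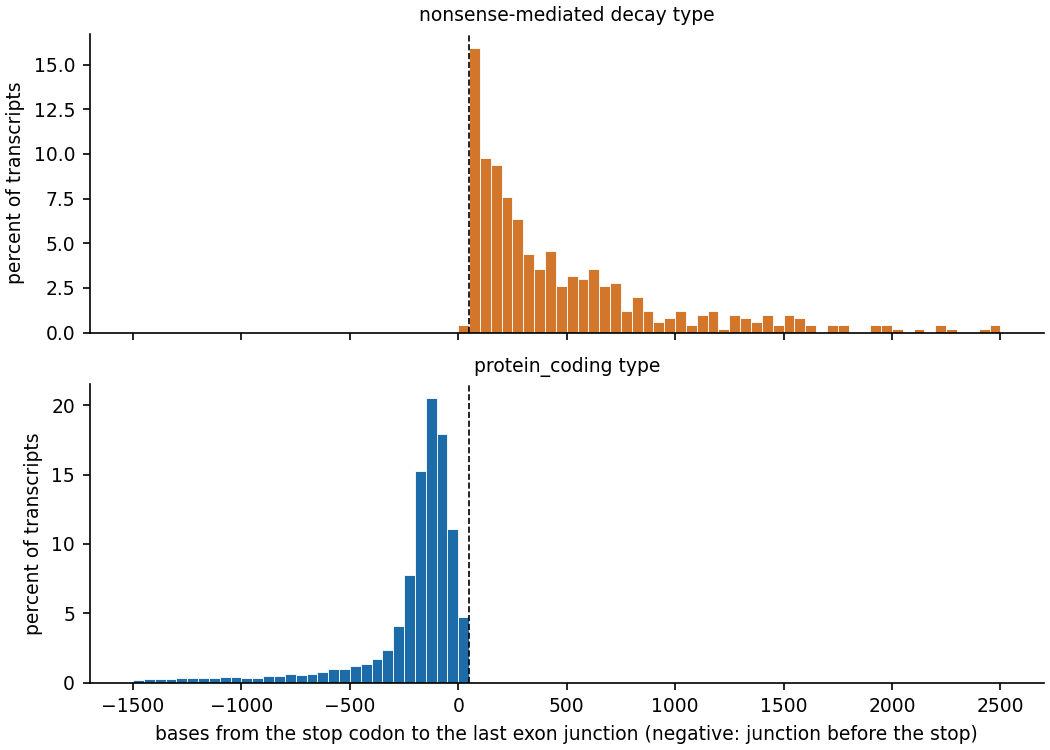
Percent of transcripts by the number of bases from the stop codon to the last exon junction in 50-base bins for the nonsense-mediated decay type (top) and the protein_coding type (bottom) among transcripts with reads; a negative distance has the junction before the stop. The dashed line marks 50 bases, and all but 2 of the decay-type transcripts drawn lie to its right.

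The decay-type transcripts were shorter than coding ones and had a much shorter frame. Their median length was 1653 bases and 7 exons against 2555 bases and 8 exons for coding transcripts with reads. The median reading frame was 291 bases against 1191, and the median 3′ untranslated region 1019 against 807. For 479 a coding transcript of the same gene had reads; 364 were shorter than it and 115 longer, with a median difference of -272 bases. The start of the frame is not annotated for 42 of the 503, or 8.35%, against 28.9% of all 7186. The annotation gives its best transcript support level, 1, to 51.9% of those read and 28.9% of all.

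Most decay-type frames start at the usual codon and end soon after they diverge. Of 478 transcripts compared with a coding one, 426 share its start and 448 have another stop (2052 reads). The 30 with the same stop (546 reads, most of them of Smpx-201) differ in exons after it. Among 401 with the same start and another stop, the stop followed a median of 40 bases after the divergence (quartiles 16 to 80), within 90 bases for 313, and 27.2% of the coding frame was kept at the median. The stop codon was TGA in 59.4%, TAG in 20.5% and TAA in 20.1%, against 51.1%, 22.9% and 25.9% of 14830 coding transcripts with reads.

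Exon skipping and another donor site were the most frequent single differences from the coding transcript, in nearly equal numbers. Added exons carried the most reads. Skipped exons were the only difference in 104 transcripts (363 reads), another donor site in 101 (506 reads), added exons in 90 (1086 reads) and another acceptor site in 80 (296 reads). An intron cut out of an exon was found in 15 (43 reads), a retained intron in 12 (121 reads), another last exon in 6 and another first exon in 2. Snrpe-206, with 0 and 1 reads, fell in none of these classes. More than 1 such difference was found in 68 (156 reads), and 24 had no coding transcript with reads. The added-exon class held 36.0% of decay-type reads in replicate 1 and 45.2% in replicate 2, and Smpx-201 and E2f6-204 both belong to it. The retained-intron class held 6.78% and 2.84%, mostly Ddx5-208.

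**Figure D4:**
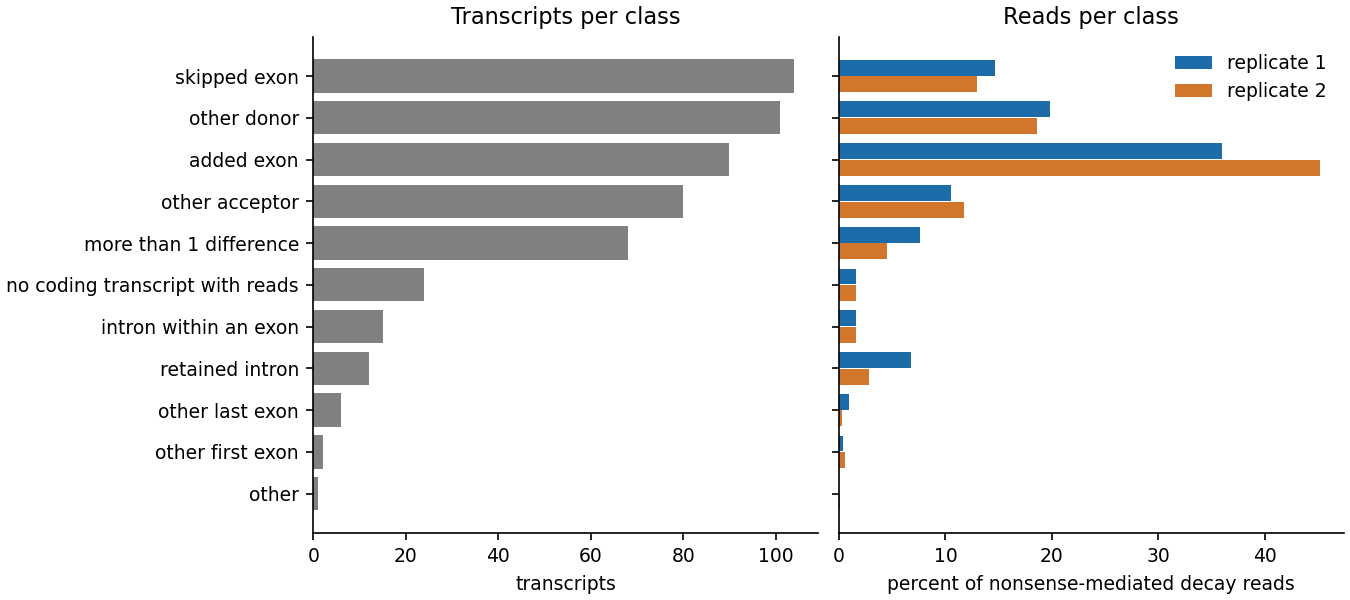
Number of nonsense-mediated decay transcripts (left) and percent of their reads in each replicate (right) by how their exons differ from the most read coding transcript of the gene. Skipped exons, with 104, and other donor sites, with 101, are the largest classes by transcripts, and added exons lead by reads, with 36.0% and 45.2%.

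Nearly all skipped exons and most added ones had a length that shifts the frame. This follows in part from how the type is annotated, since a changed frame commonly gives the early stop. A single exon was skipped in 97 transcripts, with a median of 104 bases (41 to 320), and the length was not a multiple of 3 in 96 of them. A single exon was added in 87, with a median of 98 bases (32 to 456), and 61 of these were not a multiple of 3. An added exon can also hold the stop codon itself, whether or not its length shifts the frame. In 69 of 90 the stop codon lay in the added exon. In 4 it was that of the coding transcript and in 17 it lay elsewhere; of these 17, 16 have a single added exon, and all 16 of those exons shift the frame. Examples of each class that were most read are Adhfe1-201, Chpt1-207, Smpx-201, Psma3-201, Gfer-204 (6 and 5 reads), Ddx5-208, Tbrg4-211, Iscu-205 (4 and 3 reads) and, with several differences, Dcaf11-213 (11 and 4 reads).

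**Figure D5:**
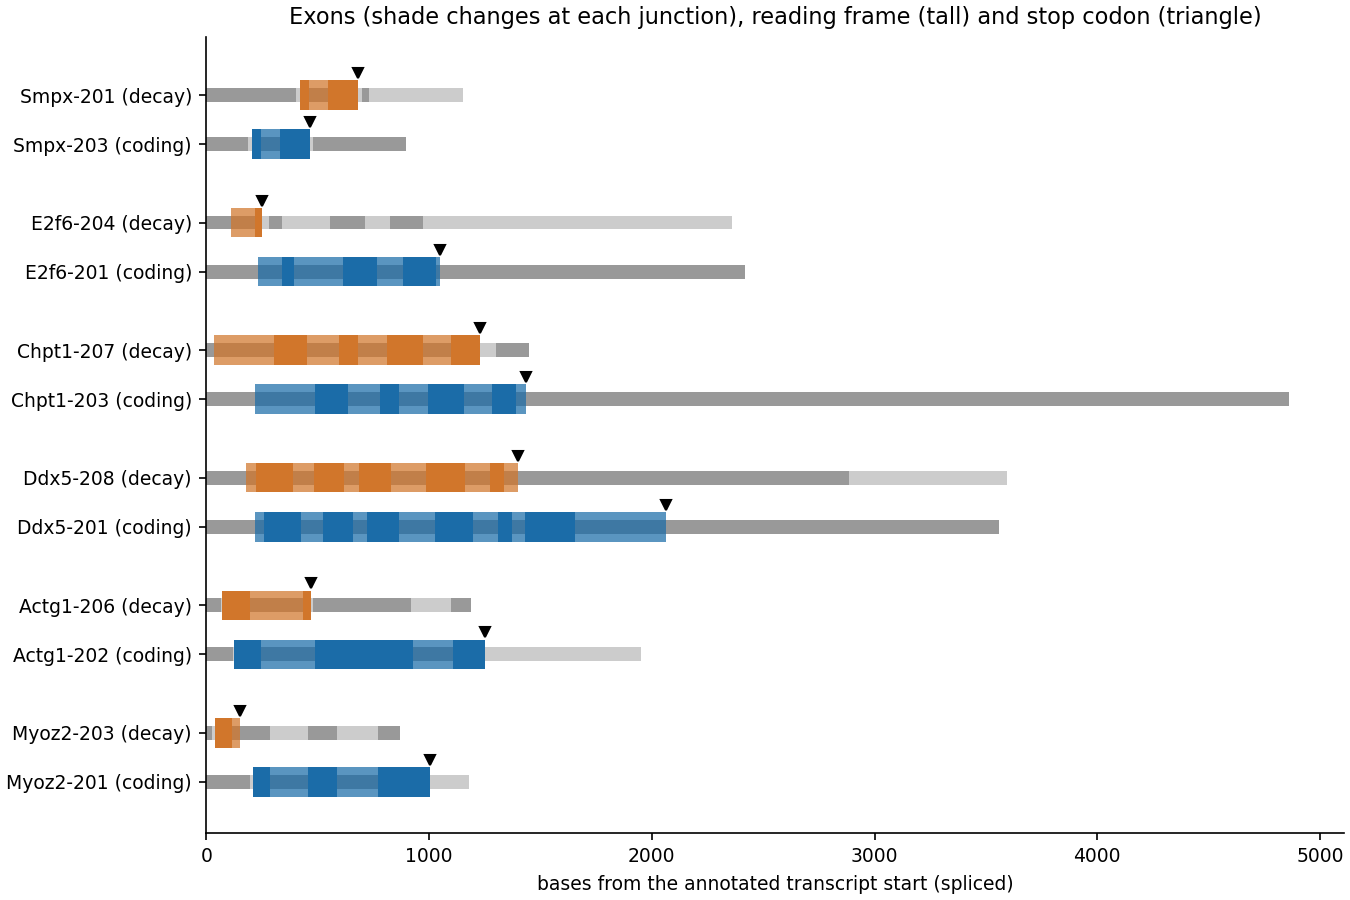
Spliced exons of 6 nonsense-mediated decay transcripts (orange frame) above the most read coding transcript of the gene (blue frame), in bases from the annotated start, with a change of shade at each junction, the reading frame as a tall bar and the stop codon as a triangle. The frame ends early in E2f6-204, Ddx5-208, Actg1-206 and Myoz2-203, near the usual end in Chpt1-207, and at the same codon in Smpx-201.

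The splicing factors, which are known for poison exons, had a higher pooled decay-type share than the 830 genes. The 24 SR and SR-like genes have 45 annotated decay-type transcripts in 22 genes, and 8 of the 45 had reads, or 17.8%. The value was 16.1% over the genes with 20 or more annotated reads in each library, a minimum not set for this list. Without a minimum, 503 of all 7186 had reads. The 8 held 12 of 380 annotated reads of these genes in replicate 1, or 3.16% (1.64 to 5.45), and 27 in replicate 2, or 6.82% (4.54 to 9.77). Both intervals lie above the pooled 0.773% and 0.647% over the 830 genes, which have the minimum of reads not set here. Of the 8, 2 could be tested and 0 were called by Fisher's exact test with Benjamini-Hochberg adjustment. Among 10 transcripts of all types tested in this list, 0 were called, against 1.11% over all 3140.

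Rbm39-225, from a splicing coactivator gene, had 3 and 13 reads with an added 73-base exon. Srsf6-201 had 2 of 32 and 4 of 25 reads with an added 268-base exon, and Srsf3-201 had 2 of 18 and 3 of 40 with an added 456-base exon. Luc7l-206 had 1 of 7 and 3 of 7. For all 4 the added exon lies within an intron of the coding transcript, and the frame ends in it for the first 3.

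The list of 44 hnRNP and other RNA-binding protein genes has 67 annotated decay-type transcripts. Of these, 16 had reads, or 23.9%, against 16.1% over the genes with 20 or more annotated reads in each library. They held 89 of 991 annotated reads in replicate 1, or 8.98% (7.27 to 10.9), and 60 of 1238 in replicate 2, or 4.85% (3.72 to 6.19). Ddx5-208 gave 64 and 29 of these. Of 3 tested, Ddx5-208 was the 1 called. Of the 42 transcripts of all types tested in this list, 1 was called higher and 1 lower. Over all 3140 the share called was 1.11%. Transcripts of a gene divide its reads, so such calls need not be separate. Ddx5-201, with 73 and 133 reads, gained share where Ddx5-208 lost it. Hnrnpdl-201 had 5 of 26 and 8 of 41 reads, 19.2% and 19.5%, and Hnrnpa1-203 had 7 of 34 and 4 of 49; both keep the stop codon of the coding transcript. Tardbp-201 had 2 of 7 and 5 of 12. Pooled over all 830 genes with enough reads the share was 0.773% and 0.647%, as given above.

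Respiratory chain genes had lower pooled shares than the 0.773% and 0.647% over the 830 genes. A larger part of their annotated decay-type transcripts had reads, however. In 24 respiratory chain genes, 11 of 29 annotated decay-type transcripts had reads, 35 of 13941 in replicate 1, or 0.251% (0.175 to 0.349), and 68 of 29580 in replicate 2, or 0.230% (0.179 to 0.291). All 4 leading transcripts belong to complex I: Ndufb8-205 with 6 and 18 reads, Ndufs6-202 with 8 and 15, Ndufa3-204 with 9 and 9, and Ndufa7-202 with 4 and 8. Ndufs6-202 held 7.34% and 5.02% of its gene and the other 3 under 4% in each library. Of 6 tested, 0 were called. Among 135 transcripts of all types tested in respiratory chain genes, 2 were called higher and 2 lower. Over all 3140 the share called was 1.11%.

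In 20 ribosomal protein genes, 8 of 26 had reads, or 30.8%, again beside 16.1% and at unmatched depth. The 8 held 11 of 1530 annotated reads in replicate 1, or 0.719% (0.359 to 1.28), and 12 of 3877 in replicate 2, or 0.310% (0.160 to 0.540). The interval of replicate 1 covers the pooled 0.773% over the 830 genes, and that of replicate 2 lies below 0.647%. Rpl22l1-204 and Rps19-205 had 3 and 2 reads each, and Rpl13a-216 had 2 and 2. Of 2 tested, 0 were called. Among 116 transcripts of all types tested in ribosomal protein genes, 0 were called, against 1.11% over all 3140. Ribosomal protein genes have many processed pseudogenes, and reads of these could have been placed on either, which was not tested.

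No decay-type read was found in the sarcomere list or in the decay machinery. Muscle genes outside the list, Smpx, Myoz2 and Cfl2 among them, did have such reads, as given above. Only 4 of the 39 sarcomere and calcium genes, Atp2a2, Nrap, Pdlim7 and Tpm1, have an annotated decay-type transcript, 5 in all. They had 0 of 17390 annotated reads in replicate 1 and 0 of 35244 in replicate 2, nearly all of Tpm1, which allows a share of up to 0.0173% and 0.00851%. The 27 genes of the decay machinery were present, with 442 and 515 annotated reads. The exon junction factors Eif4a3 (46 and 67 reads) and Rnps1 (49 and 58) and the helicase Upf1 (37 and 14) were among them. Decay-type transcripts are annotated for 5 of these genes, with 12 and 9 annotated reads in all, and 0 of 8 such transcripts had reads, which at this depth allows a share of up to 25% and 33.3%.

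Splice junctions of decay-type transcripts were also carried by reads outside the annotation. The 7186 annotated transcripts hold 46537 introns, of which 8985 occur in no transcript of another type. Reads with such an intron numbered 2553 in replicate 1 and 2828 in replicate 2. Of these, 759 and 912, or 29.7% and 32.2%, were counted on an annotated decay-type transcript. Most of the rest, 1332 and 1392 reads, were of the NIC class, new combinations of annotated splice sites, and fewer of the NNC class, which has a new splice site (270 and 310), or the ISM class, which matches part of an annotated chain (192 and 214). A read with such an intron need not keep the decay-type frame, so these reads are not counted as decay-type here.

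Of 1487 such introns with reads, 463 had a read on an annotated decay-type transcript and 1024 had reads outside the annotation only. In 650 of the 1018 genes concerned, no annotated decay-type transcript had a read, and 2634 of the 3710 outside reads lay in those 650 genes. The genes with the most outside reads, named after their values were seen, were Xpnpep1 with 62 and 58, Phtf2 with 71 and 37, Crat with 54 and 32, and Celf2 with 39 and 42. Xpnpep1 encodes a cytosolic aminopeptidase, Crat the carnitine acetyltransferase of mitochondria and Celf2 a splicing regulator.

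In Xpnpep1 the intron at chr19:53025384-53038513 (minus strand) led, and the outside reads were 57.9% and 59.2% of all reads of the gene, against 1 and 0 reads on its annotated decay-type transcripts. In Celf2 they were 76.5% and 84% of the gene's 51 and 50 reads, with 0 on the decay type. In Phtf2 they were 75.5% and 32.2%, and in Crat 8.84% and 5.73%. The SR list had 25 and 45 such outside reads beside its 12 and 27 decay-type reads, and the hnRNP list 63 and 82 beside 89 and 60.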

How the data were processed

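The deposited tables hold the authors' raw read counts per transcript model, 1 library each, per the file headers. The notes deposited with them name mm10 and GENCODE M21, and the models added to that annotation carry TALON as their source. Aligner, filters and platform were not given in the sources used here. The second spike-in mix was not analysed here. Deposited exons equalled GENCODE M21 for all 141862 transcripts in both, from which reading frames and sequences were taken.

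Computed here were shares of a gene's annotated reads, CPM over all reads without ERCC, exon differences from the most read protein_coding transcript, and Fisher's exact tests, two-sided, for transcripts with 5 or more reads over both libraries in genes with 20 or more annotated reads in each, with Benjamini-Hochberg adjustment at 0.05. The test was checked on simulated data. Tools were scipy 1.17.1 and statsmodels 0.14.6 in Python 3.11.15 (with numpy 2.4.6, pandas 2.3.3 and matplotlib 3.10.9), and, for scaling only, edgeR 4.0.16 and DESeq2 1.42.0 in R 4.3.3.

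The text names the 20 most read decay-type transcripts, the 15 with the largest share, the 8 with the smallest adjusted p, the most read 4 of each of 6 gene lists and the most read of each class; exceptions are marked, and 1 transcript that the rule took is not reported here. The transcripts, lists and rule were chosen with earlier results of these data known. Alternatives changed denominators, minimums, scaling, the coding transcript and the libraries used; those without Smpx-201 and without shared intron chains were added after the data were seen.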

Additional observations from a re-analysis of the deposited data

How the results depend on the processing

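No paired analysis was possible because there is 1 group, whose replicates are the libraries compared. Of 32 alternatives to the main results, 16 left the value within the spread between replicates, their SD, or within 1.5 times a count. The log2 ratio was judged by its counting interval instead. For the mean share of annotated reads, leaving out either library stays within the SD by construction. The mean share of annotated reads, 0.156%, was 0.123% with NIC and NNC reads in the denominator and 0.127% for transcripts whose intron chain lies in no transcript of another type. It was 0.130% without Smpx-201, 0.129% without shared intron chains, and 0.140% to 0.171% with either library left out. Reads in both libraries were found for 104 transcripts at 2 or more reads in each and 31 at 5 or more. The test of shares called 1 transcript, Ddx5-208, under all 5 alternatives, with adjusted p-values from 9.72e-06 to 5e-05 by Fisher's exact test. The median share per gene, 1.74%, was 2.94% at a minimum of 10 annotated reads, 1.00% at 50 and 6.76% with none, since at low depth 1 read is a large share, and 1.71% to 2.33% with either library left out. The genes led by a decay-type transcript numbered 8 at a minimum of 10 reads and 3 at 50, and 5 to 6 with either library left out. The log2 ratio of -0.20 (counting interval -0.31 to -0.09) was -0.0292 with TMM, 0.0204 with DESeq2 size factors, -0.0724 for transcripts with 10 or more reads and -0.31 without Smpx-201. TMM and DESeq2 move every log2 ratio by 0.17 and 0.22. Of 88 alternative shares of the 44 named transcripts, 22 moved by more than the spread between replicates and 86 were lower, as larger denominators give; Lmf1-206 went from 100% to 17.9% and 10.3% with NIC and NNC reads counted. Single reads limit what can be said of 245 of the 503 transcripts.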
